A study of Solanum lycopersicum with 30 samples.

Results

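Heat shock genes were examined in leaves of tomato (Solanum lycopersicum) through a drought and its relief. The genes were taken from a list of 10 tomato gene identifiers, named in that list as the heat shock factor HSFA2, the disaggregase HSP101, and small heat shock proteins of class I, class II, plastid and mitochondrion. Of the 10 identifiers, 6 had a row among the 35596 rows of the count table: Solyc08g062960 (HSFA2), Solyc03g115230 (HSP101), Solyc06g076570 (class I), Solyc08g062340 and Solyc08g062450 (class II), and Solyc03g082420 (plastid). The other 4, which are Solyc06g076520, Solyc06g076540 and Solyc06g076560 of class I and Solyc08g078700 of the mitochondrion, were not analysed here. All 6 passed the filter on low counts. The names are those of the list, because the files pair the identifiers with protein database entries rather than names and 0 of the listed identifiers matched the reference table.

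Vein-enriched and intervein tissue was dissected from the fourth true leaf of the same plants, 3 plants per condition, and each plant gave 1 RNA library per tissue. Drought plants were sampled at T1, when water had been withheld for 6 days, and recovered plants at T2, after watering had been resumed. The labels put T2 at 3 days after that in one place, and elsewhere name only waterings on days 29 and 30 after sowing. Watered plants were sampled at T0, 25 days after sowing, and at T1 and T2. T1 was at 29 days after sowing for drought and watered plants, and no age in days after sowing is listed for T2. The labels name 16 h of light and 8 h of dark, 300 g of soil per pot and 150 mL of water for all groups. The 10 groups are thus drought T1, recovered T2 and watered T0, T1 and T2, each in vein and in intervein, and the 30 libraries carry no label of genotype, cultivar or batch. The study compared drought and recovered plants with plants watered throughout at the same time.

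Heat shock factors are transcription factors that bind heat shock elements in the promoters of chaperone genes. HSFA2 is itself induced by heat in tomato and other plants and amplifies the response there. Small heat shock proteins hold unfolding proteins in a state from which they can be refolded, class I and class II in the cytosol and others in plastids and mitochondria, while HSP101 pulls proteins out of aggregates. In leaves the group is best known from heat, and many of its genes also respond to water deficit and other stresses.

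Each level is given in CPM, the gene's read count as a rate per library total after TMM scaling (a correction for differences in library make-up), which allows comparison of 1 gene between libraries but not of different genes, since gene lengths were not used. Library totals ran from 2718799 to 13641845 counts, with 13740 to 20143 genes detected. A tissue score, the mean log2 CPM of 613 rows higher in vein at T0 minus that of 761 rows higher in intervein at T0, went against the label by its sign in 3 libraries. It was -3.22 in the library labelled vein recovered 2, against 1.58 and 1.44 in the other vein recovered libraries, and 0.54 in the library labelled intervein recovered 1, against -3.07 and -3.20 in its group. In the library labelled vein drought 2 it was -0.55, against 1.31 and 1.10 in the other vein drought libraries. A list of 6 identifiers taken as vein markers summed to 290 to 608 CPM in vein and 206 to 906 CPM in intervein libraries, so that their ranges overlapped. The sum of 3 photosynthesis identifiers taken as intervein markers ran from 1035 to 15271 CPM in vein libraries, apart from 77642 CPM in vein recovered 2, and from 7852 to 188183 CPM in intervein libraries. Intervein drought 1 had the fewest genes detected of all libraries, 12.2% of its counts on non-coding RNA identifiers, 4 of the 6 heat shock genes at 0 counts and a summed level of 12.5 CPM over the 6, against 196 and 198 CPM in intervein drought 2 and 3. Each comparison was also run without the 2 recovered libraries and without all 4 of these libraries, and calls of named genes that then changed are given with the result. In whole tissue, fewer cells of a type and less RNA per cell cannot be told apart.

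**Figure D1:**
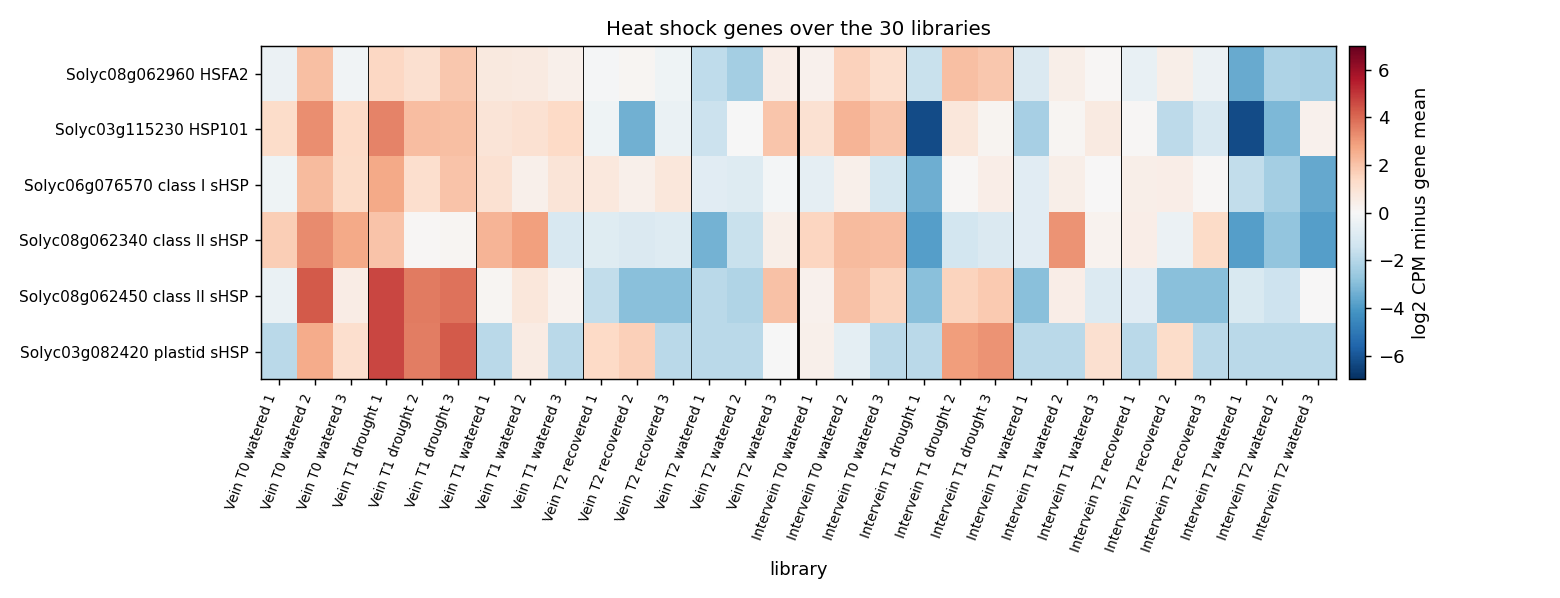
Level of the 6 heat shock genes (rows) in the 30 libraries (columns), as log2 CPM minus the mean of that gene over all libraries. The heavy line separates vein (left) from intervein (right). The 3 vein drought libraries are above the mean for HSFA2, HSP101, the class I gene, Solyc08g062450 and the plastid gene, and intervein drought 1 and the intervein watered T2 libraries hold many of the lowest values.

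HSFA2 (Solyc08g062960), the factor of the group, was at 55.3, 45.0 and 75.8 CPM in the 3 vein drought libraries at T1, against 32.3, 31.0 and 26.0 CPM in vein watered T1. The groups did not overlap, and drought was higher in every library. In intervein the drought libraries held 6.79, 87.1 and 76.9 CPM, against 9.88, 26.6 and 21.9 CPM in watered T1. There 2 drought libraries were above all watered ones, and drought 1 was below them. After rewatering, vein recovered had 19.1, 22.7 and 16.5 CPM, against 5.77, 3.65 and 28.4 CPM in vein watered T2, where 1 watered library exceeded all recovered ones. Intervein recovered had 14.3, 26.9 and 15.0 CPM, against 1.58, 4.34 and 3.97 CPM in intervein watered T2, with no overlap. At T0, vein held 15.1, 87.4 and 17 CPM and intervein 24.9, 62.2 and 45.6 CPM, so a watered library reached as high as any drought library. Ordered by mean, vein drought T1 came first (58.7 ± 15.7 CPM) and intervein watered T2 last (3.3 ± 1.5 CPM; SD, n = 3 each), and each group overlapped the next in that order.

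HSP101 (Solyc03g115230), the disaggregase, was at 202, 80.8 and 76.4 CPM in vein drought T1, against 33.9, 37.4 and 47.1 CPM in vein watered T1. Every drought library was above every watered one, with drought 1 far above the other two. In intervein it had 0, 31.0 and 20.7 CPM in drought T1, against 3.39, 19.6 and 27.8 CPM in watered T1, and the groups overlapped. Vein recovered held 14.2, 1.54 and 12.7 CPM, against 6.13, 17.4 and 69.7 CPM in vein watered T2. Intervein recovered held 19.0, 4.75 and 7.96 CPM, against 0, 1.79 and 22.3 CPM in intervein watered T2. Both T2 pairs overlapped, and the watered libraries spread more widely than the recovered ones. The T0 libraries had 44.0, 173 and 48.2 CPM in vein and 38.1, 93.9 and 70.03 CPM in intervein. Those intervein T0 values were all above those of every later intervein library, whether drought, recovered or watered.

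The class I gene, Solyc06g076570, was at 394, 143 and 245 CPM in vein drought T1, against 129, 78.4 and 115 CPM in vein watered T1, without overlap. In intervein it was at 5.73, 64.9 and 85.4 CPM in drought T1, against 36.0, 81.6 and 64.0 CPM in watered T1, with overlap. At T2 both recovered groups were above their watered group in every library. Vein recovered had 105, 80.7 and 109 CPM, against 36.4, 33.0 and 57.3 CPM in vein watered T2. Intervein recovered had 83.0, 84.7 and 67.2 CPM, against 19.0, 11.9 and 4.90 CPM in intervein watered T2. The watered T2 libraries were 3 of the 4 lowest in each tissue. At T0 the gene was at 50.1, 294 and 159 CPM in vein and 40.0, 81.0 and 26.2 CPM in intervein. In the order of group means, vein watered T2 (42.3 ± 13.2 CPM) and intervein watered T2 (11.9 ± 7.02 CPM) were the only neighbours without overlap.

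Both class II genes belong to the cytosolic small heat shock proteins, and they differed in where they were highest. Solyc08g062450 was at 46.3, 22.3 and 24.5 CPM in vein drought T1, against 1.76, 2.88 and 1.91 CPM in vein watered T1, so the lowest drought library was several times above the highest watered one. In intervein it had 0, 5.08 and 6.12 CPM in drought T1, against 0, 2.28 and 0.70 CPM in watered T1, with overlap only through drought 1. Vein recovered held 0.313, 0 and 0 CPM, which is 2 counts in all, against 0.24, 0.174 and 7.27 CPM in vein watered T2. Intervein recovered held 0.788, 0 and 0 CPM, against 0.632, 0.414 and 1.59 CPM in intervein watered T2. Each of the recovered groups was therefore at or near 0 in most libraries. At T0 the values were 1.06, 35.0 and 2.32 CPM in vein and 1.95, 7.25 and 4.99 CPM in intervein. Vein T0 library 2 was the only watered library at the level of the vein drought libraries, and its count share on non-coding RNA identifiers was 10.7%, with a summed level of 629 CPM over the 6 genes, against 122 and 250 CPM in vein T0 libraries 1 and 3. The part of that composition in its values was not tested.

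Solyc08g062340, the other class II gene, was at 13.8, 3.45 and 3.59 CPM in vein drought T1, against 18.1, 25.3 and 1.41 CPM in vein watered T1, with overlap. In intervein it was at 0, 1.2 and 1.53 CPM in drought T1, against 1.77, 31.4 and 3.97 CPM in watered T1. Here every drought library was below every watered one. Vein recovered had 1.72, 1.54 and 1.68 CPM, against 0.12, 0.956 and 4.48 CPM in vein watered T2, with overlap. Intervein recovered had 4.56, 2.44 and 8.6 CPM, against 0, 0.276 and 0 CPM in intervein watered T2, with no overlap. The gene was highest at T0, at 11.4, 34.8 and 22 CPM in vein and 9.74, 16.2 and 15.6 CPM in intervein. It was the 1 gene of the 6 whose highest group was not vein drought T1.

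The plastid gene, Solyc03g082420, encodes per the list a small heat shock protein of the chloroplast. It was at 22, 10.4 and 16.8 CPM in vein drought T1, against 0, 1.06 and 0 CPM in vein watered T1, without overlap. Intervein drought T1 held 0, 6.54 and 7.44 CPM, against 0, 0 and 1.63 CPM in intervein watered T1. Here drought 2 and 3 were above every watered library, and drought 1 was at 0. Vein recovered held 2.03, 2.5 and 0 CPM, against 0, 0 and 0.618 CPM in vein watered T2. In intervein recovered it had 0, 1.90 and 0 CPM, against 0 counts in all 3 intervein watered T2 libraries, where a count of 0 allows up to 0.119 CPM over the group. At T0 it had 0, 5.13 and 1.77 CPM in vein and 0.866, 0.315 and 0 CPM in intervein. The gene was thus near the detection limit in most groups other than drought, and intervals and limits of this kind cover counting error only.

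**Figure D2:**
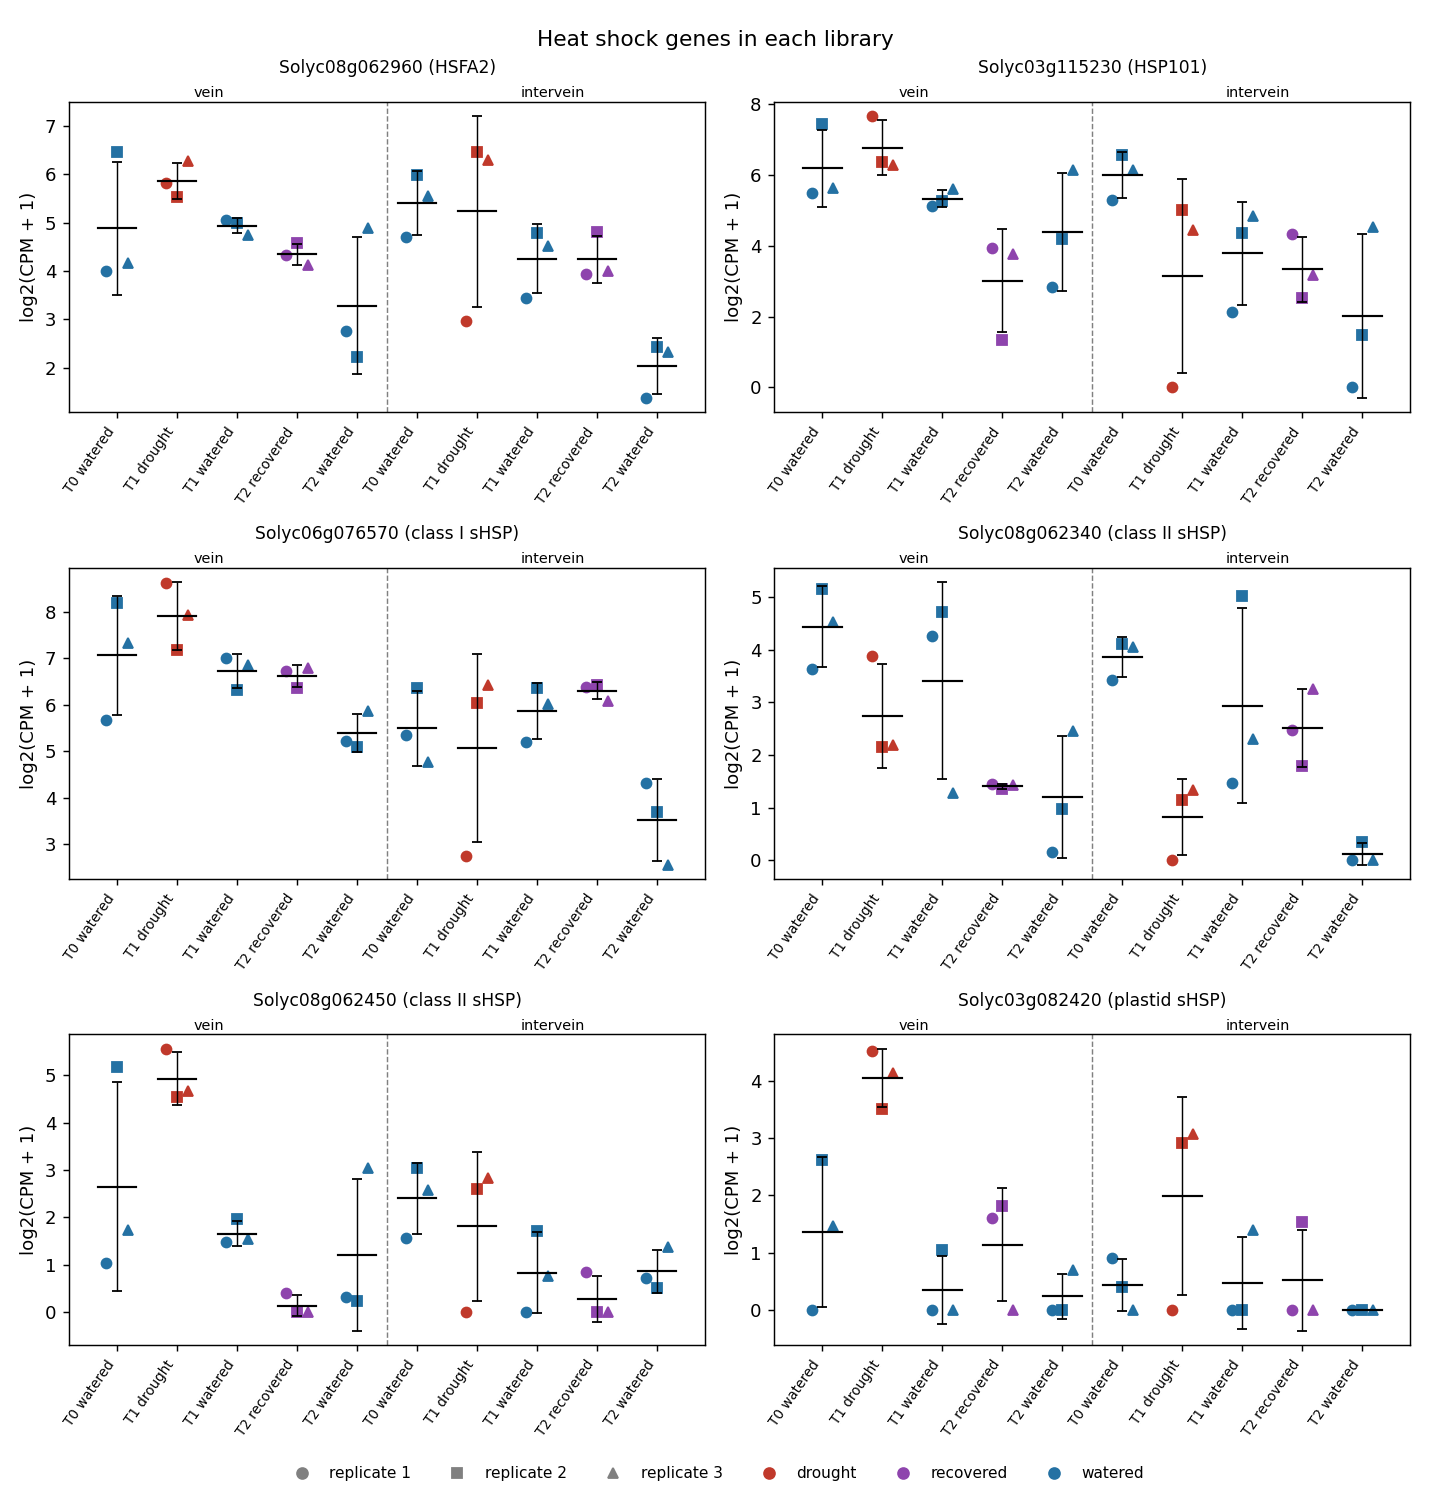
Level of each heat shock gene in every library, as log2(CPM + 1), by group, with vein on the left and intervein on the right. Marker shapes give the replicate number and black bars the mean ± SD of 3 libraries. Vein drought T1 lies above vein watered T1 without overlap for all genes but Solyc08g062340, as it does for 12% of all tested rows. None of these differences passed the edgeR test at an adjusted p under 0.05. Intervein drought 1 lies low for all 6 genes.

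Drought against watered plants at T1 was compared first, since it asks how the genes stood at the end of the dry spell. In vein, 5 of the 6 genes were higher in every drought library than in any watered library, which held for 12% of all tested rows, and 0 were lower throughout. None passed the test, for which edgeR's quasi-likelihood test called 0.695% of rows at an adjusted p under 0.05, and 2 of the 6 had an unadjusted p under 0.05, against 12% of all rows. DESeq2, the other count test run, called 0 of the 6 and 4.59% of rows. The largest ratios were of the plastid gene, with a log2 fold change of 5.5 ± 2.43 (SE) and an adjusted p of 0.350, and of Solyc08g062450, with 3.82 ± 1.57 and an adjusted p of 0.299. The 11 counts of the plastid gene in the watered group all came from vein watered 2, and without that library the value was 10.08. HSP101 followed with 1.6 ± 1.19 (adjusted p = 0.693), the class I gene with 1.28 ± 0.66 (0.453) and HSFA2 with 0.98 ± 0.75 (0.708). Solyc08g062340 was at -1.11 ± 1.09 (0.822). Without vein drought 1, HSP101 was at 0.99 and Solyc08g062340 at -2.08, and without vein watered 2 Solyc08g062340 was at -0.50. The median log2 fold change over the 6 genes was 1.44, against 0.00 over all tested rows.

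In intervein, the T1 values were less uniform among the 6 genes. None of them passed the test in either direction, against 5.19% of all rows, and 1 of the 6 had an unadjusted p under 0.05, against 22.2% of rows. Solyc08g062340 was at -3.68 ± 1.22 on the log2 scale with an adjusted p of 0.0765, and it alone was lower in every drought library, as were 12.3% of rows. Without intervein watered 2, the library at 31.4 CPM, it was at -1.65. DESeq2, which called 13.3% of rows here, called that gene lower with an adjusted p of 0.0102. HSFA2 was at 1.55 ± 0.76 (adjusted p = 0.232 in edgeR), the plastid gene at 3.20 ± 2.26 (0.431) and Solyc08g062450 at 1.87 ± 1.51 (0.502). Single libraries moved each of these, to 1.0 for HSFA2 without drought 2, to 8.31 for the plastid gene without watered 3 and to 3.44 for Solyc08g062450 without watered 2. HSP101 at 0.04 ± 1.18 (1.00) and the class I gene at -0.21 ± 0.66 (0.910) were close to 0. These values include intervein drought 1, in which 4 of the 6 genes had no counts. Without it and the other 3 libraries that stood apart, 3 genes were higher without overlap in the remaining 2 drought libraries, against 21.8% of rows, and 1 was lower, against 17.4% of rows. There the class I gene was at 0.25, with an adjusted p of 0.874.

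The drought responses of the tissues were then set against each other. No gene of the 6, and 0% of all rows, passed the test of the difference between the vein and the intervein response to drought in edgeR, while 5.65% of rows and 0 of the 6 had an unadjusted p under 0.05 and DESeq2 called 74 rows and 0 of the 6. The differences, vein minus intervein, ran from -0.57 ± 1.05 for HSFA2 to 2.58 ± 1.57 for Solyc08g062340 on the log2 scale. The 95% interval for Solyc08g062450 ran from -2.38 to 6.28, so a difference of several log2 units in either direction remained within the error. Leaving out 1 library moved the differences for 5 of the 6 genes by over 1.5 times. They then ran from -1.03 to -0.04 for HSFA2, 0.95 to 2.38 for HSP101, 0.54 to 3.22 for Solyc08g062340, 0.38 to 2.52 for Solyc08g062450 and -2.84 to 6.95 for the plastid gene. The outer values came without intervein drought 1 or 2 for HSFA2, vein drought 1 or intervein drought 2 for HSP101, intervein watered 2 for the low values of both class II genes, and intervein watered 3 or vein watered 2 for the plastid gene.

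**Figure D3:**
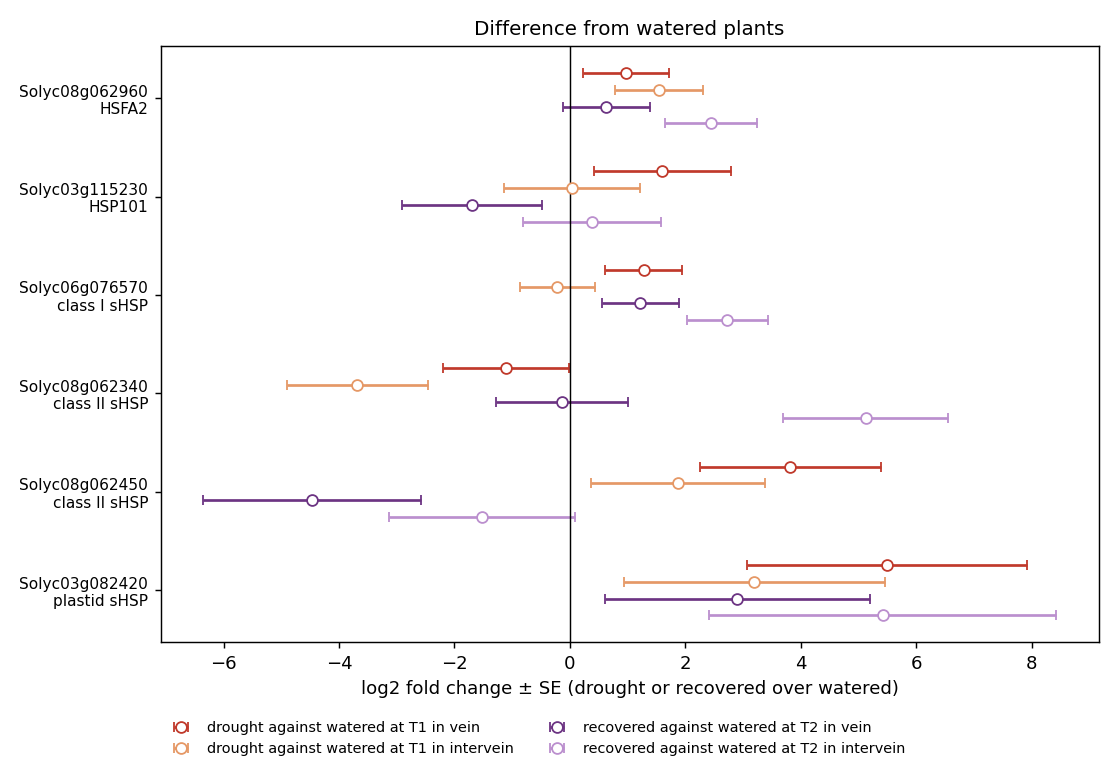
Log2 fold changes of the 6 genes, drought over watered at T1 and recovered over watered at T2, in vein and intervein, with bars of ± 1 SE from the edgeR fit. Open markers did not pass an adjusted p of 0.05, and all are open. The vein T1 values are above 0 for 5 of the 6 genes, against 49.2% of all rows. The intervein T2 values are above 0 for 5 of the 6, against 52.6% of all rows.

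Recovered against watered plants at T2 were compared to ask how the genes stood after rewatering. In vein none of the 6 genes passed the test, against 1.57% of all rows, and 1 of the 6 had an unadjusted p under 0.05, against 17.9% of rows. DESeq2 called 0 of the 6 and 8.8% of rows. The class I gene was higher in every recovered library, at 1.22 ± 0.67 on the log2 scale (adjusted p = 0.347), as were 12.5% of rows. HSFA2 was at 0.63 ± 0.75 (adjusted p = 0.737), HSP101 at -1.69 ± 1.21 (0.501), Solyc08g062340 at -0.14 ± 1.14 (0.983) and the plastid gene at 2.90 ± 2.30 (0.558). Solyc08g062450 was at -4.47 ± 1.88 (0.208), with its 2 counts in the recovered group. The means put the watered group 24.5-fold above the recovered one, with a counting interval of 6.79 to 203. Vein watered 3 was the highest watered library for all 5 of these genes. Without it HSFA2 was at 2.04, HSP101 at -0.32, Solyc08g062340 at 1.54, Solyc08g062450 at -0.96 and the plastid gene at 6.69. Solyc08g062450 was at -7.45 without vein recovered 1, which held both of its counts. Without vein watered 1 or 2, HSFA2 was at 0.27 or 0.18 and Solyc08g062340 at -0.71 or -0.47.

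In intervein at T2 the values were higher in recovered plants for 5 of the 6 genes, and for 52.6% of all rows. Of the 6, 0 passed the edgeR test, against 0.772% of rows. The median log2 fold change was 2.59, against 0.07 over all rows. HSFA2, the class I gene and Solyc08g062340 were higher in every recovered library than in any watered one, as were 11% of rows, and these 3 had an unadjusted p under 0.05, against 17.4% of rows. HSFA2 was at 2.44 ± 0.80 on the log2 scale with an adjusted p of 0.133, the class I gene at 2.73 ± 0.71 with 0.0644 and Solyc08g062340 at 5.13 ± 1.43 with 0.0792. The 4 counts of Solyc08g062340 in the watered group all came from watered 2, and without that library the value was 8.40. DESeq2 called all 3 higher, with adjusted p of 0.0204, 0.00208 and 0.00357, where it called 7.18% of rows. The plastid gene had an adjusted p of 0.352, and its value rests on 14 counts in recovered 2, since all other libraries of both groups were at 0. HSP101 was at 0.38 ± 1.19 (adjusted p = 0.913), but at -0.30 without the 2 recovered libraries whose score went against their label and at -0.37, -0.07 and -0.11 without recovered 1, watered 1 or watered 2, so the count of 5 turns on single libraries. Without watered 3 it was at 3.23. Solyc08g062450 was at -1.52 ± 1.62 (0.672), at -5.88 without recovered 1 and at -0.68 without watered 3. Without the library labelled intervein recovered 1, and the other 3 libraries that stood apart, the class I gene was called higher, with an adjusted p of 0.0352 where 1.48% of rows were called.

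The same intervein watered T2 libraries were also low against the earlier watered ones. Against intervein watered T1, none of the 6 genes passed the edgeR test, against 0.185% of rows, and 3 had an unadjusted p under 0.05, against 16.4% of rows. HSFA2, the class I gene and Solyc08g062340 were lower in every watered T2 library, as were 9.79% of rows. Their log2 fold changes were -2.5 ± 0.81 (adjusted p = 0.152), -2.36 ± 0.70 (0.124) and -6.39 ± 1.48 (0.0641). Without watered T2 library 2, the 1 with counts, Solyc08g062340 was at -9.66. DESeq2 called these 3 lower, with adjusted p of 0.0217, 0.0126 and 0.000196, where it called 5.3% of rows. In edgeR without the 4 libraries that stood apart, all of them from other groups, Solyc08g062340 was called lower (adjusted p = 0.0460), as were 0.932% of rows in either direction. These are the 3 genes that stood higher in recovered plants at T2, and the comparisons share the watered T2 libraries. In vein none was called at T2 against T1 among watered plants, against 0% of rows in edgeR and 0.602% in DESeq2, which called 0 of the 6, and 1 of the 6 had an unadjusted p under 0.05, against 6.16% of rows. That gene was Solyc08g062340, at -3.03 ± 1.18 with an adjusted p of 0.706 in edgeR, and its groups overlapped. Without vein watered T2 library 3 it was at -4.67. In vein the class I gene was lower in every watered T2 library, at -1.34 ± 0.67 (adjusted p = 0.814), as were 11.6% of rows. Between T1 and T0 of watered plants 0 of the 6 and 0% of rows passed the edgeR test in either tissue, and the unadjusted p was under 0.05 for 0 of the 6 in both, against 1.98% of rows in vein and 4.18% in intervein. DESeq2 called 25 rows (0.129%) in vein and 42 (0.216%) in intervein, and 0 of the 6 in either. HSP101 was lower in every intervein watered T1 library than in any T0 library, at -2.0 ± 1.21 (adjusted p = 1.00), as were 5.34% of rows.

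The difference between tissues of the T2 response was not called for any of the 6 genes, nor for any row, in edgeR, while 5.38% of rows and 1 of the 6 had an unadjusted p under 0.05 and DESeq2 called 84 rows and 0 of the 6. That 1 gene was Solyc08g062340, at -5.26 ± 1.81 for vein minus intervein with an adjusted p of 0.881. The difference was below 0 for all 6 genes, from -1.51 for the class I gene to -5.26, while 49.3% of all rows had a difference above 0. For Solyc08g062450 it was 1.77 rather than -2.95 without the 2 recovered libraries whose score went against their label, and it was also above 0 without vein watered 3 or intervein recovered 1. For the plastid gene it was 2.87 without intervein recovered 2, against -2.52 with all libraries, and it was above 0 without vein watered 3 as well. Without intervein watered 2, Solyc08g062340 was at -8.54. HSFA2 was at -0.49 without vein watered 3. HSP101 was at -0.79 without that library, at -1.32 without intervein recovered 1 and at -4.95 without intervein watered 3.

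Recovered plants at T2 were also compared with drought plants at T1, which are other plants at another time. In vein all 6 genes were lower in every recovered library than in any drought library, against 14.3% of rows, and the median log2 fold change was -2.75, against 0.00 over all rows. Of the 6, 4 had an unadjusted p under 0.05, against 19.1% of rows. This comparison shares its drought libraries with the T1 comparison, where 5 of the 6 were high. Watered vein libraries also differed between T2 and T1. Their log2 fold changes were -3.03 for Solyc08g062340, -1.34 for the class I gene and -1.25 for HSFA2. For HSP101, Solyc08g062450 and the plastid gene they were -0.35, 0.20 and -0.85, and none was called. The part of time in the lower recovered values was not tested. The class II gene Solyc08g062450 fell, with a log2 fold change of -8.08 ± 2.05 and an adjusted p of 0.0389, and it was the 1 gene called, where 2.71% of rows were. Its mean was 0.104 ± 0.181 CPM in recovered and 31.0 ± 13.2 CPM in drought libraries, a ratio of 297 with a counting interval of 82.3 to 2455, since 2 counts were left. The call did not hold without vein drought 1 (adjusted p = 0.124), vein drought 2 (0.0597), vein drought 3 (0.0734), vein recovered 2 (0.124) or vein recovered 3 (0.116), and it held without vein recovered 1 (0.0461). It was also lost without the 2 recovered libraries whose score went against their label (0.112) and without all 4 that stood apart (0.0884), while the direction stayed. In the 5 fits without 1 of these libraries the log2 fold change ran from -8.27 to -7.42, and 0.0257% to 0.957% of all rows were called. With all libraries of both groups kept, the call held with RLE size factors (adjusted p = 0.0379) and without the filter (0.0438). It also held with the replicate block (0.0459), in the compared libraries alone (0.0444) and in DESeq2 (0.000306). HSP101 was at -3.64 ± 1.3 (adjusted p = 0.124), and DESeq2 called it lower with 0.0339, where it called 9.46% of rows. HSFA2 was at -1.59 ± 0.76 (0.253), the class I gene at -1.41 ± 0.67 (0.251), Solyc08g062340 at -2.06 ± 1.15 (0.341) and the plastid gene at -3.44 ± 2.21 (0.425). Without vein drought 1, Solyc08g062340 was at -1.08.

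In intervein the recovered and drought groups overlapped for all genes but Solyc08g062340, which was higher in every recovered library, as were 12.2% of rows. It was at 2.42 ± 1.18 with an adjusted p of 0.236, and 0 of the 6 were called, against 3.11% of rows, while 2 had an unadjusted p under 0.05, against 21.4% of rows. DESeq2 called 0 of the 6 and 11.3% of rows. HSFA2 was at -1.61 ± 0.76 (0.222), Solyc08g062450 at -3.61 ± 1.64 (0.205), the plastid gene at -2.87 ± 2.18 (0.476), HSP101 at -0.70 ± 1.19 (0.796) and the class I gene at 0.59 ± 0.66 (0.664). Without recovered 1, which held all of that group's counts of Solyc08g062450, that gene was at -7.97. Without recovered 2, which likewise held all of the plastid gene's, the plastid gene was at -8.28. HSP101 ran from -1.45, without recovered 1, to 0.05, without drought 2. The class I gene ran from 0.09, without drought 1, to 1.14, without drought 3. Without the 4 libraries that stood apart, intervein drought 1 among them, 4 genes were lower without overlap, against 31.4% of rows, and 1 was higher, against 25.2% of rows.

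**Figure D4:**
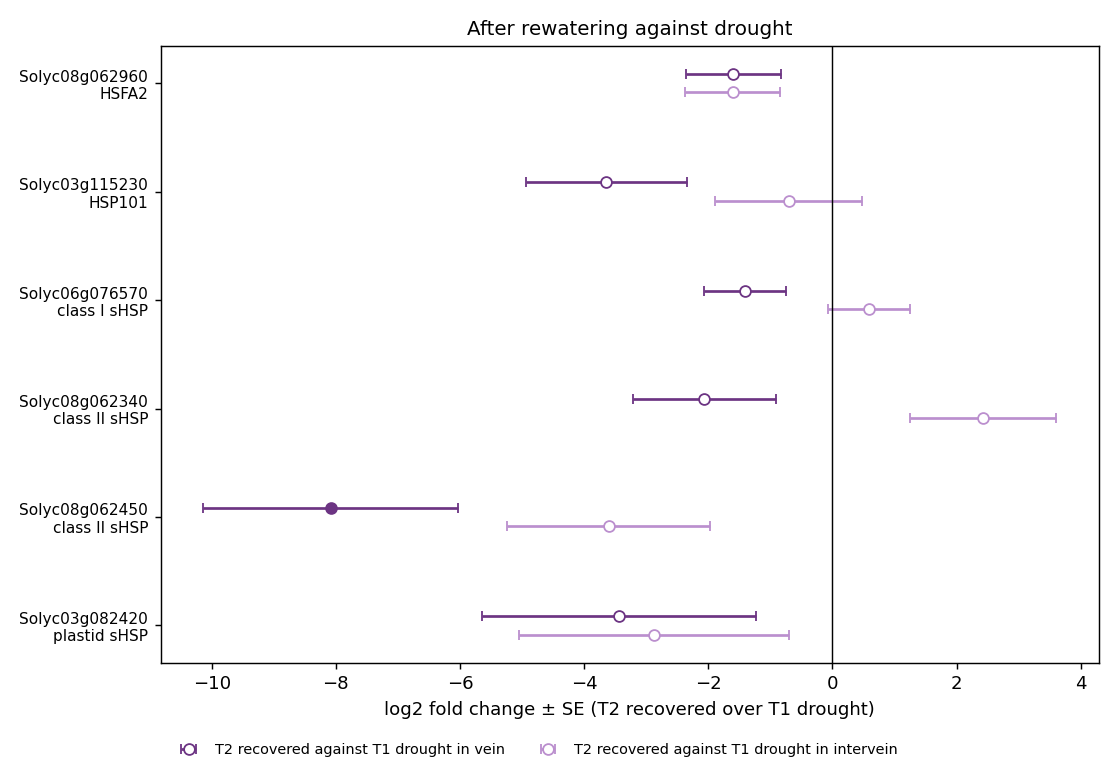
Log2 fold changes of the 6 genes, T2 recovered over T1 drought, in vein and intervein, with bars of ± 1 SE from the edgeR fit. The filled marker is Solyc08g062450 in vein, at -8.08, the only value that passed an adjusted p of 0.05, and all 6 vein values are below 0. Of all rows, 49.1% were above 0 in vein.

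Vein against intervein was compared over the watered groups of T0, T1 and T2 together. The class I gene was higher in vein, with a log2 fold change of 1.48 ± 0.39 and an adjusted p of 0.00643, and it was the 1 gene of the 6 called, where 27.3% of rows were. An unadjusted p under 0.05 was found for 2 of the 6 and 37.8% of rows. That call held in every alternative that was run, with adjusted p between 0.000828 and 0.0357. The highest came from the fit with a plant block, which takes same-numbered vein and intervein libraries as 1 plant. The main fit took the tissues of a plant as independent, here, under drought and in the differences between tissues. With the plant block none of the 6 was called under drought. The other 5 genes were also above 0, from 0.77 ± 0.44 for HSFA2 to 1.95 ± 1.38 for the plastid gene, and 55.3% of all rows were. Solyc08g062340 was at 1.53 ± 0.69 (adjusted p = 0.102), which DESeq2 called with 0.0490 where it called 32% of rows. In edgeR it was called without intervein watered T1 library 2 (2.26, adjusted p = 0.0201, with 23.9% of rows called), and HSP101 was called without intervein watered T2 library 3 (2.13, 0.0281, with 26.9%). Leaving out 1 library gave 0.33 to 0.95 for HSFA2, 0.19 to 1.91 for Solyc08g062450 and 0.40 to 3.65 for the plastid gene, with the low values of the first pair without vein watered T2 library 3 and that of the plastid gene without vein watered T1 library 2. Without vein T0 library 2, HSFA2 was at 0.34 and Solyc08g062450 at 0.37. Under drought at T1, 5 of the 6 genes were higher in every vein than in any intervein library, against 14.6% of rows, and 0 passed the edgeR test, against 0.906% of rows, with an unadjusted p under 0.05 for 3 of the 6 and 17.9% of rows. The class I gene was at 2.32 ± 0.69 (adjusted p = 0.0881) and was called by DESeq2 with 0.0112, where 8.03% of rows were. HSP101 was at 2.79 ± 1.24 (0.239), Solyc08g062340 at 2.84 ± 1.19 (0.208), Solyc08g062450 at 3.03 ± 1.52 (0.296) and the plastid gene at 1.80 ± 2.05 (0.694). HSFA2 was at 0.04 ± 0.74 (0.997), and at -0.31 without the 4 libraries that stood apart. Without vein drought 1, Solyc08g062340 was at 1.86.

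**Figure D5:**
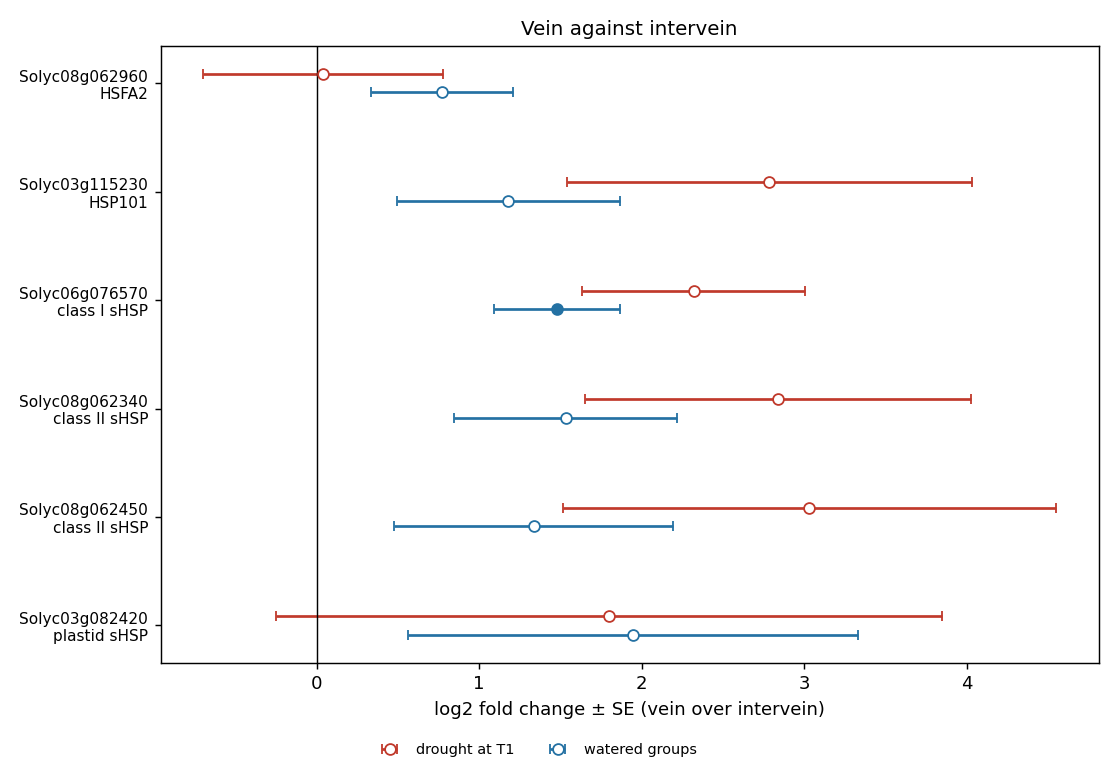
Log2 fold changes of the 6 genes, vein over intervein, over the watered groups and under drought at T1, with bars of ± 1 SE from the edgeR fit. The filled marker is the class I gene Solyc06g076570 over the watered groups, at 1.48, and every value is above 0. Of all rows, 55.3% over the watered groups and 52.4% under drought were above 0.

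The wider chaperone system was followed in lists of 58 identifiers, of which 56 had a row and 50 passed the filter. The lists were drawn from general knowledge of tomato gene models, were not checked against an annotation, and are given by identifier. Of the 18 tested identifiers listed as other heat shock factors, 0 rose and 1 fell under drought in vein at T1, against 0.35% and 0.345% of all rows, and 3 rose and 1 fell in intervein, against 2.51% and 2.68%. Solyc09g009100 fell in both tissues, to 18.6 ± 7.65 CPM in vein drought against 96.1 ± 21.7 CPM in vein watered plants (log2 fold change -2.37 ± 0.36, adjusted p = 0.00425), and to 36.5 ± 21.0 CPM in intervein drought against 106 ± 2.82 CPM in intervein watered plants (-1.54 ± 0.35, adjusted p = 0.0183). The vein call held in all 13 alternatives and the intervein call in 11, not without intervein drought 3 or in the fit of the compared libraries alone, with adjusted p up to 0.252. Solyc07g040680 rose in intervein to 73.1 ± 37.7 CPM in drought against 1.17 ± 1.56 CPM in watered plants (5.89 ± 1.35, 0.0194). Solyc03g026020 rose there to 104 ± 12.3 CPM in drought against 38.3 ± 11 CPM in watered plants (1.44 ± 0.33, 0.0183). These intervein calls held in 10 and 11 of 13 alternatives, and both were lost without intervein watered 3 and in the fit of the compared libraries alone, the first also without intervein watered 2, with adjusted p up to 0.141 and 0.182. The third, Solyc03g097120, which the naming rule left out and which was added after its values were seen, was at 64.6 ± 22 CPM in drought against 25.8 ± 6.50 CPM in watered plants, with an adjusted p of 0.0364 that reached 0.237 over the alternatives. It kept its call in 7 of 13, not without intervein drought 2 or 3 or watered 2 or 3, without the filter or in the fit of the compared libraries alone.

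Among the chaperone lists, 0 of 11 tested identifiers listed as other small heat shock proteins were called at T1 in either tissue, against the 0.695% and 5.19% of rows called. Their median log2 fold change was 3.38 in vein, with 10 of 11 above 0, and 2.04 in intervein, with 8 of 11 above 0. Over all rows the medians were 0.00 and -0.08, with 49.2% and 45% of rows above 0. Of 12 tested HSP70 identifiers 0 were called in vein and 1 rose in intervein, Solyc11g020040, to 37.9 ± 22.8 CPM in drought against 4.10 ± 1.31 CPM in watered plants (log2 fold change 3.21 ± 0.69, adjusted p = 0.0155). It kept its call in 9 of 13 alternatives, not without intervein drought 3, watered 2 or watered 3 or in the fit of the compared libraries alone, with adjusted p up to 0.147. Of 6 tested HSP90 identifiers 0 were called in vein and 1 rose in intervein, Solyc07g065840, to 3680 ± 648 CPM in drought against 1168 ± 487 CPM in watered plants (1.66 ± 0.48, 0.0461). That call held in only 3 of 13 alternatives, with adjusted p up to 0.314. It was lost in every fit that left out 1 library, without the 4 libraries that stood apart, without the filter, with the replicate block and in the fit of the compared libraries alone. The 3 tested identifiers of other Clp ATPases and MBF1c had 0 calls in both tissues, with medians of 0.56 in vein and 0.83 in intervein. For HSP70 the median log2 fold change was 0.40 in vein, with 8 of 12 above 0, and 0.08 in intervein, with 7 of 12. Of all rows, 49.2% in vein and 45% in intervein were above 0. For HSP90 it was -0.17 in vein, with 3 of 6 above 0, and -0.53 in intervein, with 1 of 6, which was Solyc07g065840.

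At T2 the 5 lists held 1 call in vein and 2 in intervein, where 1.57% and 0.772% of all rows were called. Among the 18 other heat shock factors 1 rose in recovered plants in both tissues, Solyc09g059520, named here after its values were seen. It was at 134 ± 40.9 CPM in vein recovered against 28.0 ± 1.53 CPM in vein watered plants (log2 fold change 2.26 ± 0.42, adjusted p = 0.0217) and at 132 ± 35.9 CPM in intervein recovered against 33.4 ± 3.78 CPM in intervein watered plants (1.98 ± 0.41, 0.0301). It kept the vein call in 6 of 13 alternatives, with adjusted p up to 0.156. The vein call was lost without vein recovered 2, without any of the 3 vein watered libraries, without the 2 recovered libraries whose score went against their label, without all 4 that stood apart and in the fit of the compared libraries alone. It kept the intervein call in 8, not without intervein recovered 2 or 3 or intervein watered 2 or 3 or in the fit of the compared libraries alone, with adjusted p up to 0.113. The 11 other small heat shock proteins had 0 calls in vein and 1 in intervein, Solyc11g020330, also named after its values were seen, at 7.14 ± 6.88 CPM in recovered against 0.105 ± 0.182 CPM in watered plants with an adjusted p of 0.0448. This call held in 3 of 13 alternatives, with adjusted p up to 0.237. It was lost in every fit that left out 1 library, without the 2 recovered libraries whose score went against their label, without the filter, with the replicate block and in the fit of the compared libraries alone. The HSP70, HSP90 and remaining lists had 0 calls in either tissue at T2. The median log2 fold change in vein was -0.45 for HSP70, -0.47 for HSP90 and 0 for the other small heat shock proteins. In intervein the same medians were -0.56, -0.08 and 2.12.

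Outside the lists, the 3 rows whose 10 group means of log2 CPM followed the mean of the 6 genes most closely, among 17533 rows averaging at least 1 CPM, were Solyc08g016670, Solyc12g006880 and Solyc08g006980, with Pearson correlations of 0.965, 0.962 and 0.950 over the 10 groups. All 3 were highest in vein drought T1 and lowest in intervein watered T2. Solyc08g016670 was at 68.0 ± 14.8 CPM in vein drought T1 and 15.3 ± 6.17 CPM in intervein watered T2, Solyc12g006880 at 24.3 ± 4.88 and 6.77 ± 0.756 CPM, and Solyc08g006980 at 94.95 ± 7.51 and 48.4 ± 1.0 CPM. They were picked for this likeness, so the values are a description. Among the 6 genes themselves, the 15 pairs had Pearson correlations of log2 CPM over the 30 libraries from 0.237, for Solyc08g062340 with the plastid gene, to 0.753, for HSP101 with Solyc08g062450. These points share tissue, time and library composition.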

How the data were processed

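RNA from 30 tomato leaf libraries in 10 groups of 3 was read on a stranded mRNA kit as single reads of 75 nt. Per the submitters' processing notes the tools included HISAT2 2.1.0, with FastQC 0.11.5, DESeq2 1.20.0 and StringTie 1.3.3b. Per the file headers, the authors deposited a matrix of whole-number counts per gene, not normalized. What build, annotation and rule for multiply mapping reads lay behind them is not given in the sources used here. Counts of near-identical neighbours, such as class I genes, are therefore uncertain.

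The counts were fitted with edgeR 4.0.16 under R 4.3.3. Its filterByExpr kept 19431 of 35596 rows (99.946% of counts), libraries were scaled by TMM, and all 30 entered 1 quasi-likelihood fit with 1 coefficient per group and 20 residual degrees of freedom. P-values are two-sided, Benjamini-Hochberg adjusted over the tested rows, called under 0.05. Standard errors were derived as the absolute log2 fold change over the square root of the test's F statistic. Intervals are 95%, from these errors and a t distribution with the 20 residual degrees of freedom, and counting intervals are exact Poisson. Log2 CPM used a prior count of 2. DESeq2 1.42.0 was an alternative. As a check of the code, the fit was also run on counts simulated from the model. Known folds were set there in well counted rows of the vein T1 comparison only. Outlying libraries were not simulated, so that run cannot show how the fit handles them, and its outcome is not used here. The protocol gives 3 separate plants per group. Genes outside the list were named by a rule: in each pathway list, up to 2 called higher and 2 called lower genes per T1 comparison, and the 3 rows most alike over group means. Members and lists were chosen with earlier results of these data known.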

Additional observations from a re-analysis of the deposited data

How the results depend on the processing

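Fits without 1 library, with other size factors, without a filter, without the 2 recovered or all 4 libraries that stood apart, with a replicate block, of the compared libraries alone and with DESeq2 were run for 14 comparisons of the 6 genes. Of 1236 alternative values 42 changed sign, 0 of them called in either fit. DESeq2 called 1 gene rather than 0 at T1 in intervein (13.3% of all rows) and 3 rather than 0 at T2 in intervein (7.18%). For recovered T2 against drought T1 in vein it called 2 rather than 1 (9.46%). For watered T2 against T1 in intervein it called 3 rather than 0 (5.3%). For the tissues it called 2 rather than 1 over watered groups (32%) and 1 rather than 0 under drought (8.03%). In edgeR the shares of these comparisons, in the same order, were 5.19%, 0.772%, 2.71%, 0.185%, 27.3% and 0.906%. The compared libraries alone gave 1 call at T1 in vein, Solyc08g062450 with an adjusted p of 0.0187 where 1.58% of rows were called, which ran up to 0.570 over its alternatives. Without the 4 libraries there was 1 call at T2 in intervein (1.48% of rows called) and 0 for recovered against drought in vein (0.988%). For watered T2 against T1 in intervein there was 1, Solyc08g062340 with 0.0460 (0.932% of rows called). Without the 2 libraries there were 0 for recovered against drought in vein (1.03% of rows called). The cause of these differences was not tested. Leaving out 1 library gave 0 to 1 calls for recovered against drought in vein, and the fits with 0 called 0.0257% to 0.957% of rows. For the tissues over watered groups, leaving out 1 gave 1 to 2 calls. The fits with 2 were those without intervein watered T1 library 2 (23.9% of rows called) or T2 library 3 (26.9%).

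The direction changed for 19 of 84 values of a gene in a comparison. HSP101 (Solyc03g115230) at T1 in intervein was -0.082 with RLE factors, -0.037 without the filter, -0.039 without the 2 libraries and -0.099 in DESeq2, and -0.78 to 0.56 leaving out 1 library. At T2 in intervein HSP101 was -0.30 without the 2 and -0.30 without the 4 libraries, and -0.37 to 3.23 leaving out 1. For recovered T2 against drought T1 in intervein it was -1.45 to 0.047 leaving out 1. The class I gene (Solyc06g076570) at T1 in intervein was 0.25 without the 4 libraries and -0.77 to 0.25 leaving out 1. Solyc08g062340 at T2 in vein was 0.0014 with the replicate block, and -0.71 to 1.54 leaving out 1. HSFA2 (Solyc08g062960) in vein against intervein under drought was -0.31 without the 4 libraries and -0.47 to 0.53 leaving out 1.

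The difference between tissues of the T2 response for Solyc08g062450 was 1.77 without the 2 and 1.77 without the 4 libraries, and -6.01 to 1.42 leaving out 1. For the plastid gene (Solyc03g082420) leaving out 1 gave -3.20 to 2.87 at T2 and -2.84 to 6.95 at T1. Among watered plants, T1 against T0, leaving out 1 gave -0.81 to 0.91 for HSFA2, -1.08 to 0.046 for the class I gene and -3.08 to 0.38 for Solyc08g062450 in vein. Each of these upper values came without vein T0 library 2. In intervein it gave -0.00070 to 0.86 for the class I gene, -2.25 to 0.36 for Solyc08g062340 and -4.81 to 1.76 for the plastid gene, which was at -0.21 with the replicate block. For T2 against T1 it gave -1.70 to 0.19 for HSP101, -3.28 to 0.82 for Solyc08g062450 and -4.61 to 3.78 for the plastid gene in vein, and -1.10 to 1.33 for Solyc08g062450 in intervein, which was at 0.015 with the replicate block.

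Same-numbered drought and watered or recovered and watered libraries deviated from their group means with correlations between -0.142 and 0.190. Recovered and drought libraries did so with -0.167 to 0.362 (2 of 3 over 0.1 in vein, 0 of 3 in intervein). Same-numbered vein and intervein libraries of a time and condition had -0.241 to 0.307, 6 of 15 over 0.1, with 9 of 15 correlating best with their own number. That equal numbers mean the same plant is assumed in the plant block and was not settled by these correlations. With the replicate block the calls were as in the fit without it, 1 for recovered T2 against drought T1 in vein (Solyc08g062450, adjusted p = 0.0459) and 0 in the other condition comparisons. The fit without the block called 2.71% of rows for recovered T2 against drought T1 in vein. The plant block gave 1 call over the watered groups, the class I gene with 0.0357, where the fit without it called 27.3% of rows. It gave no call among the heat shock genes for the tissues under drought or for the differences between tissues.

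With 3 libraries per group and standard errors from 0.39 to 3.03 log2 units, differences of several-fold went uncalled, among well counted genes too. Leaving out 1 library moved 59 of 84 values of a gene in a comparison by over 1.5 times or across 0, and 39 of the 63 that were at least 1 log2 unit. The plastid gene and Solyc08g062450 had 0 counts in 1 or more libraries of many groups, and Solyc08g062340 in intervein drought 1 and intervein watered T2 libraries 1 and 3. Fitted fold changes against these groups thus depend on the prior count of the edgeR fit. That was left at its default and is not the one used for log2 CPM.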

Other observations

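In the same number ranges as the listed identifiers that were not analysed, 4 other rows of the count table were looked at after their presence had been seen, and no name is given to them. Solyc06g076510 was at 665 ± 213 CPM in vein drought T1, against 183 ± 83.1 CPM in vein watered T1 (log2 fold change 1.86 ± 0.60, adjusted p = 0.154), and at 113 ± 71.2 CPM in intervein drought T1, against 92.9 ± 41.9 CPM in intervein watered T1 (0.29 ± 0.58, 0.845). Its lowest vein drought library, at 440 CPM, was above its highest vein watered T1 library, at 278 CPM, as 12% of all tested rows were higher in every vein drought library.

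Solyc06g076580, numbered next to the class I gene, was at 7.89 ± 2.15 CPM in intervein recovered T2, against 0.513 ± 0.664 CPM in intervein watered T2 (4.26 ± 1.14, 0.0710), and in vein at 12.9 ± 4.12 CPM in recovered against 3.31 ± 1.74 CPM in watered T2 (1.97 ± 0.95, 0.278). The groups did not overlap in either tissue, where 11% of rows in intervein and 12.5% in vein were higher in every recovered library. Solyc08g078695 was at 17.8 ± 13.8 CPM in vein drought T1, against 3.71 ± 1.39 CPM in vein watered T1 (2.26 ± 1.6, 0.666), and at 0.685 ± 0.601 CPM in intervein drought T1, against 3.47 ± 3.13 CPM in intervein watered T1 (-2.25 ± 1.67, 0.459). In vein recovered T2 it was at 0.417 ± 0.723 CPM, against 1.24 ± 2.14 CPM in vein watered T2. Solyc06g076550 stayed under 7 CPM in every library. Adjusted p-values of the 4 rows ran from 0.0710 to 0.898 over the T1 and T2 comparisons of edgeR, which called 0.695% of rows in vein and 5.19% in intervein at T1, and 1.57% and 0.772% at T2 (SD, n = 3 per group).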
